A study of Mus musculus with 2 samples.

Results

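The genes described here code for carriers and pumps that move organic ions, bile acids, vitamins, nucleosides and lipids across membranes. They were chosen by name alone, as the rows whose gene symbol falls in the solute carrier families Slc10, Slc13, Slc17, Slc19, Slc22, Slc23, Slc28, Slc29, Slc46, Slc47, Slc51, Slc52 and Slco or in the ATP-binding cassette (ABC) subfamilies Abca to Abcg. This gave 134 of the 23793 rows of each deposited table, 84 of them solute carriers and 50 of them ABC genes. The RNA came from mouse small-intestinal organoids, cultures of gut epithelium grown in Matrigel from crypts of mice of the ChgA-GFP reporter strain, whose chromogranin A expressing cells carry green fluorescent protein (GFP). The medium of both groups held noggin, murine epidermal growth factor and medium conditioned with R-spondin at 10%, and no further treatment is given in the labels. The GFP+ group is the sorted fluorescent fraction, about 1% of the epithelial cells per the labels' protocols, and the GFP- group is the rest of the same dissociated epithelium, so that both carry the reporter. There was 1 library per group. The labels used here do not give the age, sex or number of the mice or how many cultures were pooled.

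Solute carriers move their substrates down a gradient or couple them to an ion, and ABC transporters use ATP to pump theirs, mostly outwards. In the small intestine such proteins take up bile acids, folate, thiamine, riboflavin, ascorbate and nucleosides from the lumen, return drugs, bile acid conjugates and plant sterols to it, and pass products to the blood. Some of them also move prostaglandins or monoamines such as serotonin, the product of the enterochromaffin cells, the endocrine cells in which chromogranin A is abundant.

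The unit of all levels is FPKM, in which the fragments of a gene are divided by its transcript length in kilobases and by the library's size. A difference below is log2((FPKM + 1) in GFP+ / (FPKM + 1) in GFP-), and a gene passed the size rule when this was at least 2 in absolute value, a 4-fold change on that scale. Since each group is 1 library, no difference was checked against replicates and none carries a p-value. The confidence bounds that Cuffdiff deposited overlapped between the libraries for all 134 genes. The lower bound was 0 for each of them, as for nearly all rows, so this overlap was fixed and says nothing about the differences. A level of 1 FPKM or more was reached by 11480 rows in GFP+ and by 10599 rows in GFP-. The median log2 ratio of the 5563 symbols of at least 10 FPKM in both libraries was -0.50, so a difference near that value is that of a typical well-expressed gene.

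The GFP+ fraction carried its endocrine label. All 10 enteroendocrine markers with an estimate passed the size rule as higher, with a summed level of 3922 FPKM in GFP+ cells and 62 FPKM in GFP- cells, while *Chga* and *Chgb* had no estimate in GFP+. All 7 Paneth cell markers were lower, with 814 FPKM in GFP+ cells and 13188 FPKM in GFP- cells, and under either other scaling 6 of them, without *Mmp7*. Of 11 enterocyte markers 1 was higher and 2 were lower, with 3716 FPKM in GFP+ cells and 8400 FPKM in GFP- cells, and these 2 did not pass the rule under the other scalings tried. Goblet markers summed to 1354 FPKM in GFP+ cells and 3165 FPKM in GFP- cells, with 2 of 7 lower. Stem and cycling markers summed to 383 FPKM in GFP+ cells and 1486 FPKM in GFP- cells, with 3 of 7 lower, and 1 under either other scaling. Tuft markers summed to 5.56 FPKM in GFP+ cells and 18.6 FPKM in GFP- cells, with 1 of 6 lower as deposited and none with the median ratio of well-expressed symbols set to 0. Of the markers of cells outside the epithelium, the mesenchymal gene *Vim* was at 237 FPKM in GFP+ cells and 4.90 FPKM in GFP- cells, and *Col1a1* at 1.56 FPKM in GFP+ cells and 0.0106 FPKM in GFP- cells. The endothelial gene *Pecam1* was at 10.4 FPKM in GFP+ cells and 0.187 FPKM in GFP- cells, with *Cdh5*, *Kdr* and *Tie1* below 0.01 FPKM in both. The immune marker *Ptprc* was at 0.0224 FPKM in both libraries, with *Lyz2* at 6.61 FPKM in GFP+ cells and 0.858 FPKM in GFP- cells. Markers of neurons and glia summed to 8.32 FPKM in GFP+ cells and 2.13 FPKM in GFP- cells, and none of the 6 passed the rule. Among the lists outside the epithelium *Vim*, *Pecam1* and *Lyz2* were the genes past the rule as deposited. *Col1a1* and *Col3a1* passed it as higher too with both libraries rescaled to one total, and with a pseudocount of 0.1 FPKM so did *Col1a1*, *Col3a1*, *Cd68*, *Gfap* and *Nefl*. With a pseudocount of 5 FPKM *Vim* alone passed. How far any of these cell types bear on the transporter values was not tested. The GFP- library is a mixture of these lineages, and in bulk samples fewer cells of a type and less RNA per cell cannot be told apart.

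Of the 134 transporter genes, 68 reached 1 FPKM in either library and 66 stayed below it in both, 16 of them listed at 0 in both. Of the 68, 13 passed the size rule as higher in GFP+ and none passed it as lower. Over all 11868 symbols of at least 1 FPKM, 7.09% were higher and 4.59% lower by the same rule. The 13 genes make up 19.1% of the 68 and 9.70% of all 134, and over all 23532 symbols with no filter 3.57% were higher and 2.32% lower. A gene below 1 FPKM in GFP- cells enters the 68 only through GFP+ and has to differ upwards, which holds for 9 of the 68 and for 4 of the 13. Among the 58 transporter genes that reached 1 FPKM in GFP+ and also in GFP-, 9 were higher (15.5%) and none lower, against 4.27% and 5.12% of the 10199 symbols of that kind. Differences were above 0 for 41 of the 68 genes (60.3%) and below 0 for 27, against 46.2% and 53.8% of all symbols tested. The median difference was 0.32 over the 68 genes, against -0.12 over all symbols tested. The 13 genes were *Slco2a1*, *Slc13a1*, *Slc22a17*, *Abcb9*, *Abcg1*, *Slc13a3*, *Slc47a1*, *Slc22a3*, *Abca7*, *Slc46a3*, *Abca3*, *Abcc5* and *Abcb10*, in falling order of their difference.

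**Figure D1:**
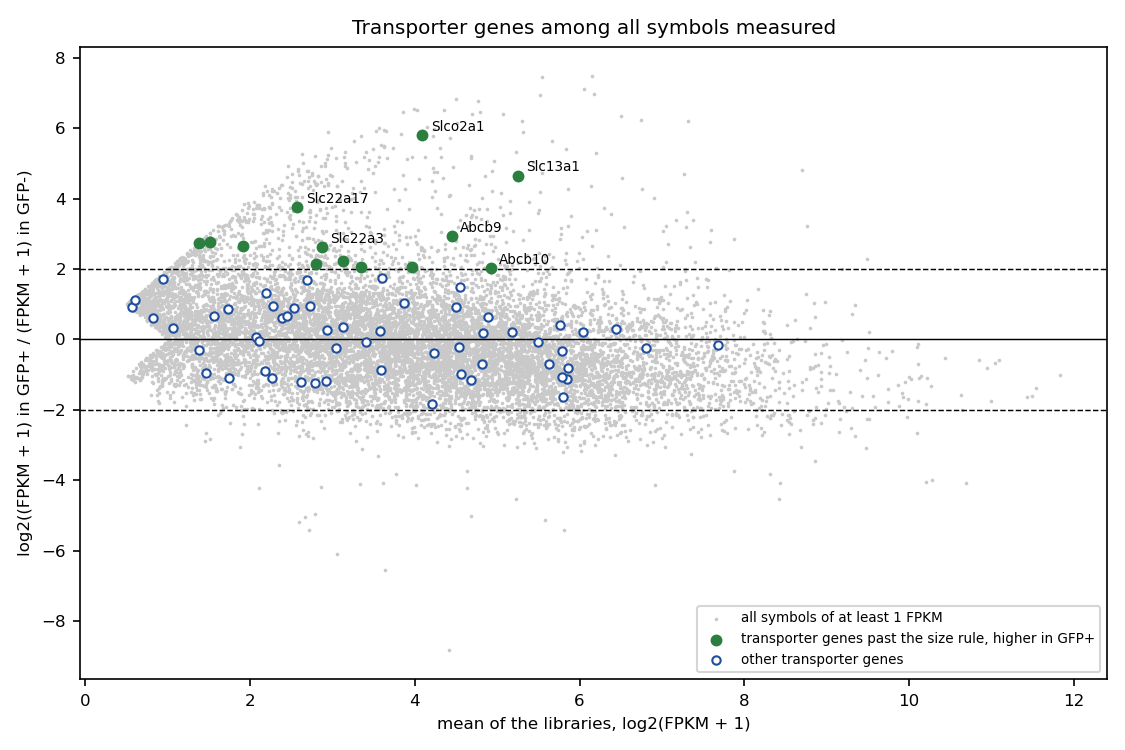
Difference between the GFP+ and GFP- libraries (vertical axis, log2 of the ratio of FPKM + 1) against the mean level of each symbol (horizontal axis, log2(FPKM + 1)), for all 11868 symbols of at least 1 FPKM (grey) and the 68 transporter genes among them. Filled green points are the 13 transporter genes above the upper dashed line at 2, and no transporter gene lies below the lower one at -2.

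The transporter genes as a whole summed to 1834 FPKM in GFP+ cells and 1519 FPKM in GFP- cells. In GFP+ the 5 genes with the highest levels were *Slc29a1*, *Slc13a1*, *Slco2a1*, *Slc19a1* and *Abcd3*, which held 38.6% of that sum. In GFP- the 5 highest held 39.4% of the sum, and *Slc29a1* and *Slc19a1* were again among them. *Slc13a1* and *Slco2a1*, in the upper 5 of GFP+, were at 6.58 and 1.27 FPKM in GFP- cells.

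**Figure D2:**
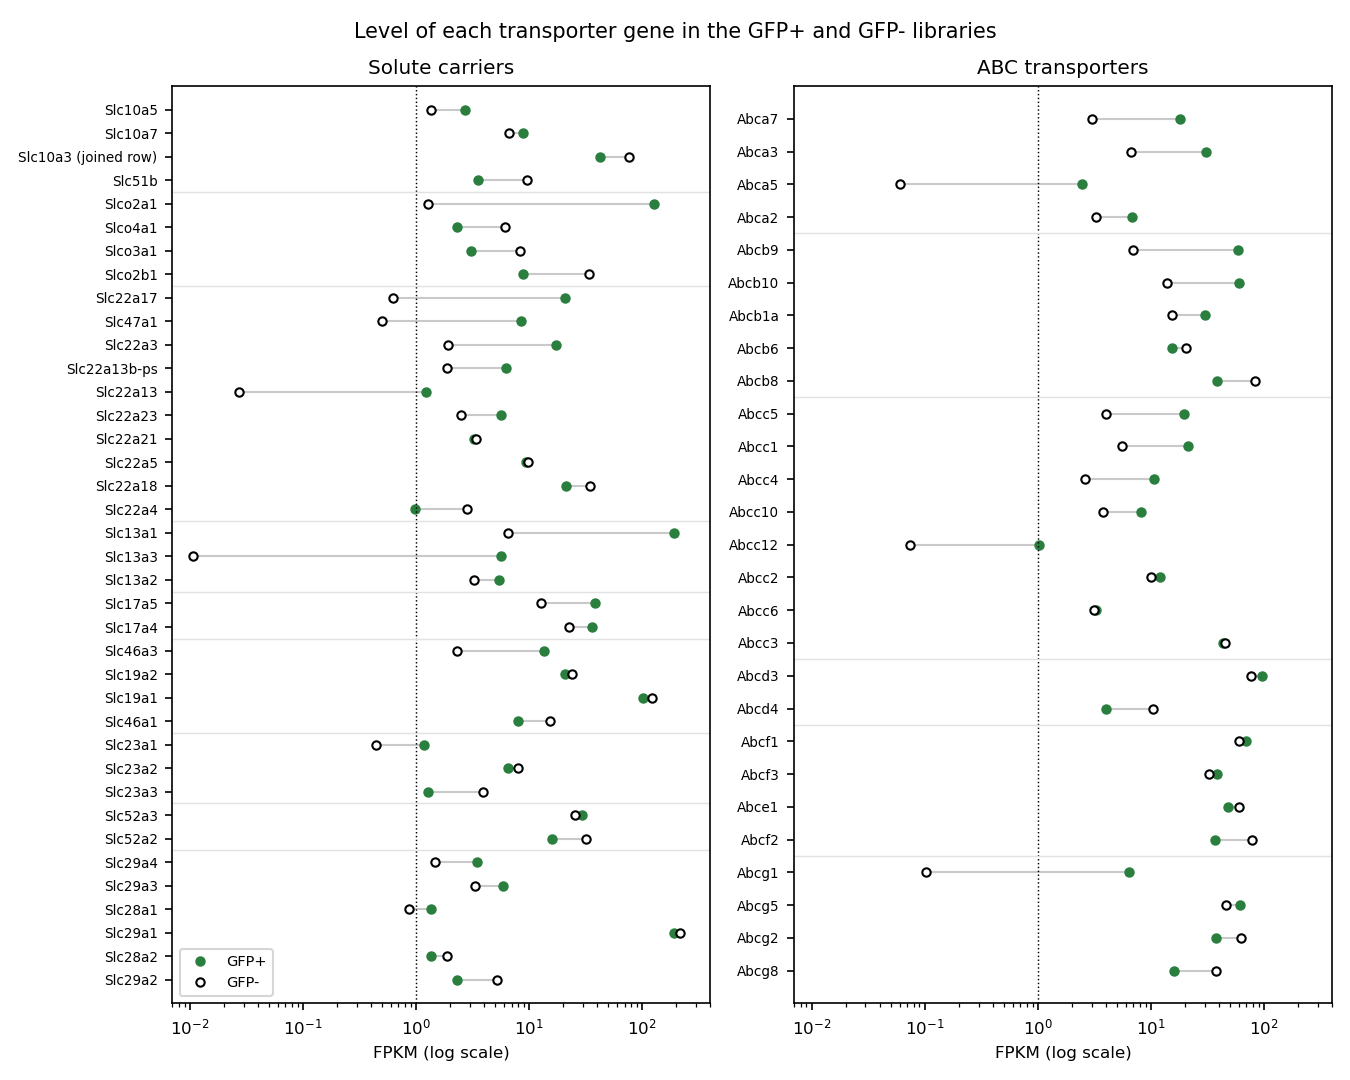
FPKM on a log axis of 65 of the 68 transporter genes in the GFP+ library (filled green) and the GFP- library (open), grouped by family, with a dotted line at 1 FPKM. The widest gaps are those of *Slc13a3*, *Slco2a1*, *Abcg1*, *Slc22a13* and *Abca5*, and the levels of *Slc29a1*, *Slc19a1*, *Abcc3* and *Slc22a5* lie close together. The GFP- values of *Slc13a3* and *Slc22a13* stand for about 2.21 and 3.21 fragments, so the width of these gaps is limited by depth.

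The organic anion transporting polypeptides (Slco) carry bile acids, hormone conjugates and prostaglandins into cells. *Slco2a1*, the prostaglandin transporter (listed locus chromosome 9, 103008489 to 103087849, mm10, plus strand), was at 127 FPKM in GFP+ cells and 1.27 FPKM in GFP- cells, a ratio of 99.6 and a difference of 5.81. Its upper bounds were 294 FPKM in GFP+ cells and 3.72 FPKM in GFP- cells. It was the transporter gene with the largest difference. The other Slco genes of at least 1 FPKM did not pass the rule. *Slco2b1*, an uptake carrier for steroid sulfates and drugs, was at 8.80 FPKM in GFP+ cells and 33.9 FPKM in GFP- cells, the lowest difference of all 68 genes at -1.83. *Slco3a1* was at 3.04 FPKM in GFP+ cells and 8.35 FPKM in GFP- cells, and *Slco4a1*, a thyroid hormone carrier, at 2.29 FPKM in GFP+ cells and 6.07 FPKM in GFP- cells. So of the family's 4 genes of at least 1 FPKM, *Slco2a1* alone was above 0. The other 3 lay between -1.83 and -1.10, below 0 under every scaling tried. The remaining 11 Slco genes, with the hepatic type *Slco1a* and *Slco1b2* among them, had at most 0.384 FPKM.

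The Slc13 carriers couple sulfate or citrate-cycle dicarboxylates to sodium. *Slc13a1*, the sodium-sulfate cotransporter known from kidney and small intestine (chromosome 6, 24088283 to 24168092, minus strand), was at 190 FPKM in GFP+ cells and 6.58 FPKM in GFP- cells, a ratio of 28.9 and a difference of 4.66. *Slc13a3*, a high-affinity dicarboxylate carrier, was at 5.69 FPKM in GFP+ cells and 0.0106 FPKM in GFP- cells, a difference of 2.73. On the fragment scale described under the processing, the GFP- value stands for about 2.21 fragments, so its ratio is not given. *Slc13a2*, the low-affinity dicarboxylate carrier of the brush border, was at 5.43 FPKM in GFP+ cells and 3.25 FPKM in GFP- cells, a difference of 0.60. Its antisense gene *Slc13a2os* shares its listed locus, at 0.175 FPKM in GFP+ cells and 0.00480 FPKM in GFP- cells, and since the counting is not stated to use strand, reads of the pair may not be separated. *Slc13a4* was at 0.726 FPKM in GFP+ cells and 0.0149 FPKM in GFP- cells, and the citrate carrier *Slc13a5* was listed at 0 in both. All 3 family members of at least 1 FPKM were above 0 and 2 passed the rule, against 46.2% and 7.09% of all symbols tested. *Slc13a3* reached 1 FPKM in GFP+ only, so it had to lie above 0.

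The Slc22 and Slc47 families carry organic cations, carnitine and organic anions, and hold the low-affinity monoamine carriers. Of 28 genes, 11 reached 1 FPKM and 3 of these passed the size rule as higher, against 7.09% of all symbols tested. *Slc22a17*, a receptor for the iron-binding protein lipocalin 2 (chromosome 14, 54906727 to 54913132, minus strand), was at 20.9 FPKM in GFP+ cells and 0.621 FPKM in GFP- cells, a difference of 3.76. *Slc47a1*, which extrudes organic cations in exchange for protons (chromosome 11, 61343400 to 61378075), was at 8.53 FPKM in GFP+ cells and 0.498 FPKM in GFP- cells, a difference of 2.67. *Slc22a3*, an uptake carrier for serotonin, noradrenaline and histamine known as OCT3 (chromosome 17, 12419974 to 12507704), was at 17.2 FPKM in GFP+ cells and 1.94 FPKM in GFP- cells, a difference of 2.63. Its listed locus is shared by 2 rows, so reads of an overlap may not be separated.

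*Slc22a2*, a cation carrier beside *Slc22a3* on chromosome 17, was listed at 0 in GFP+ and at 0.0168 FPKM in GFP- cells. *Slc29a4*, a monoamine carrier of the nucleoside family, was at 3.49 FPKM in GFP+ cells and 1.46 FPKM in GFP- cells. *Slc22a3* and *Slc29a4* were above 0 as deposited, which the other scalings could not turn since both raise GFP+ values. Of this pair of monoamine carriers *Slc22a3* alone passed the rule as deposited. The carnitine carrier *Slc22a5* was at 9.36 FPKM in GFP+ cells and 9.88 FPKM in GFP- cells, and its relatives *Slc22a21* and *Slc22a4* were at 3.23 and 0.977 FPKM in GFP+ cells and at 3.38 and 2.82 FPKM in GFP- cells. No carnitine carrier passed the rule. *Slc22a18* was at 21.03 FPKM in GFP+ cells and 34.8 FPKM in GFP- cells, and *Slc22a23* at 5.70 FPKM in GFP+ cells and 2.499 FPKM in GFP- cells. *Slc22a13* and its neighbouring copy *Slc22a13b-ps* were at 1.23 and 6.24 FPKM in GFP+ cells and at 0.0272 and 1.89 FPKM in GFP- cells, and as related copies they are uncertain where reads could be split between them. The renal anion carriers *Slc22a6* and *Slc22a8* were below 0.02 FPKM in both libraries.

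**Figure D3:**
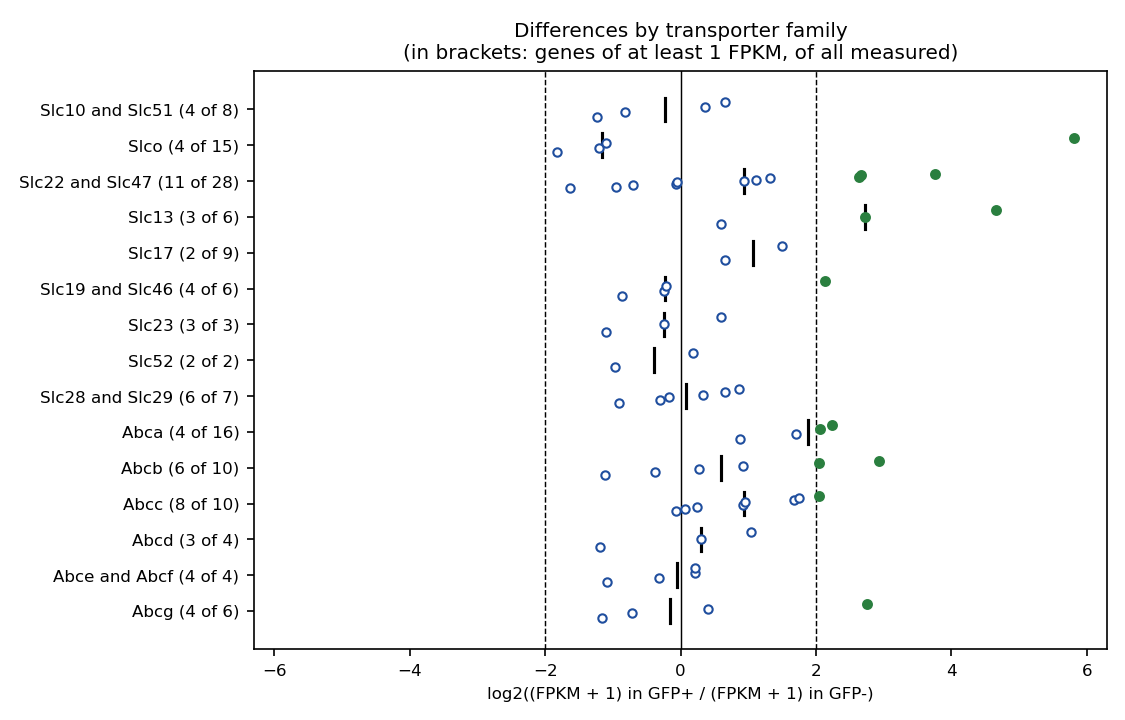
Differences of the 68 transporter genes (horizontal axis, log2 of the ratio of FPKM + 1 in GFP+ over GFP-), 1 row per family with its median as a black bar, filled where the gene passed the size rule (dashed lines). The 13 filled points belong to 8 families, and 3 of them to Slc22 and Slc47.

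Promoter sequences are shown for 4 of the solute carriers past the rule, those with the largest differences for which RefSeq gave a window, as a place to look for features that the choice by name did not use. These are the 250 bases before the annotated gene start, from RefSeq on GRCm38.p6, the assembly of mm10. Capitals mark the E-box CANNTG, the letters bound by basic helix-loop-helix factors, which include endocrine lineage regulators. *Slco2a1* is read from chr9:103008237-103008486 (plus strand), *Slc22a17* from chr14:54913133-54913382, *Slc13a3* from chr2:165473198-165473447 and *Slc22a3* from chr17:12507705-12507954 (each minus strand).
Slco2a1: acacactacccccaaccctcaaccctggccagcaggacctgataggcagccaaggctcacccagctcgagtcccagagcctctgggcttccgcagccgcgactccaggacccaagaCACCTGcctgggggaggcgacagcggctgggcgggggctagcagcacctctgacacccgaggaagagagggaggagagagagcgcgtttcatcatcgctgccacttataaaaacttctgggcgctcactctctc
Slc22a17: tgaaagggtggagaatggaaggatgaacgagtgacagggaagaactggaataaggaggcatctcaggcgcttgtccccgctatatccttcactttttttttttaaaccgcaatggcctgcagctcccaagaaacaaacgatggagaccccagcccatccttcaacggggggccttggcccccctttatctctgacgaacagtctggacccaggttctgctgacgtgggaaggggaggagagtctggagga
Slc13a3: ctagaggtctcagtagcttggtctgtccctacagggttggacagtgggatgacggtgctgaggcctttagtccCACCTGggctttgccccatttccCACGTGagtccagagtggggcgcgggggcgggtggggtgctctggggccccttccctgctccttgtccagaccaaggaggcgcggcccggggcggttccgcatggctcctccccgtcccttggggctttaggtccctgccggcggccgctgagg
Slc22a3: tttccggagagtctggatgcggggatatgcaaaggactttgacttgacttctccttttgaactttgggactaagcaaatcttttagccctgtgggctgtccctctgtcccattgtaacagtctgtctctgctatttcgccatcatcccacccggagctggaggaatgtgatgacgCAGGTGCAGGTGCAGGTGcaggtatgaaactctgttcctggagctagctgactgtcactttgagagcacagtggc
The *Slc22a3* window holds 3 E-boxes in direct succession, the same 6 letters repeated, that of *Slc13a3* holds 2 and that of *Slco2a1* holds 1. The *Slc22a17* window holds none. RefSeq windows were matched for 10 of the 13 genes past the rule and for 107 of the 134. An E-box was present in 5 of those 10 windows (50%), in 76.7% of the 133 windows of the transporter genes and in 66.2% of all 32851 windows, both strands being covered by a motif that reads the same on either. The GC box GGGCGG, searched on both strands, was in 6 of the 10 (60%), 38.3% of the transporter windows and 32.7% of all windows. The TATA box letters TATAAA were in 1 of the 10, in *Slco2a1*, and in 12.4% of all windows. The homeodomain core TAATTA was in 0 of the 10 and in 4.84% of all windows. These matches describe the letters in the windows and no binding was measured.

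Bile acids are reclaimed in the distal gut by an apical uptake carrier and leave the enterocyte through a basolateral pair of proteins. None of the 8 Slc10 and Slc51 genes passed the rule. The apical carrier *Slc10a2* was at 0.0231 FPKM in GFP+ cells and 0.104 FPKM in GFP- cells, and the hepatic carrier *Slc10a1* at 0.136 FPKM in GFP+ cells and 0.0224 FPKM in GFP- cells. *Slc51b*, a subunit of the basolateral exporter, was at 3.52 FPKM in GFP+ cells and 9.58 FPKM in GFP- cells, a difference of -1.23. The bile salt export pump *Abcb11* had 0.00339 FPKM in each library, about 1.02 fragments in GFP+ and 1.01 in GFP-. *Slc10a7* was at 8.88 FPKM in GFP+ cells and 6.67 FPKM in GFP- cells, and *Slc10a5* at 2.72 FPKM in GFP+ cells and 1.35 FPKM in GFP- cells. *Slc10a3* could not be read alone, since its row joins *Slc10a3-ubl4* and *Ubl4*, at 42.6 FPKM in GFP+ cells and 75.9 FPKM in GFP- cells.

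A list of genes that are not transporters was counted beside them. It holds genes of bile acid sensing and binding and related nuclear receptors, *Nr1h2* and *Nr1h3* among them. Of its 10 genes 7 reached 1 FPKM and none passed the rule, with a median difference of -0.72. The bile acid receptor *Nr1h4* (FXR) was at 22.2 FPKM in GFP+ cells and 26.8 FPKM in GFP- cells, and *Vdr*, which lithocholic acid also activates, at 86.9 FPKM in GFP+ cells and 152 FPKM in GFP- cells. The ileal bile acid binding protein *Fabp6* was listed at 0 in GFP+ and at 0.191 FPKM in GFP- cells. The FXR target *Fgf15* was at 0.0102 FPKM in GFP+ cells and 0.470 FPKM in GFP- cells. The genes typical of the distal gut, *Slc10a2*, *Fabp6* and *Fgf15*, were thus below 1 FPKM in both libraries.

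Among the vitamin carriers, 1 gene past the rule belongs to a folate family by sequence only. *Slc46a3*, a lysosomal member of the Slc46 family (chromosome 5, 147878441 to 147894802), was at 13.6 FPKM in GFP+ cells and 2.31 FPKM in GFP- cells, a difference of 2.14. The proton-coupled folate transporter *Slc46a1*, which takes up dietary folate, was at 7.92 FPKM in GFP+ cells and 15.3 FPKM in GFP- cells, a difference of -0.87. The reduced folate carrier *Slc19a1* was at 102 FPKM in GFP+ cells and 121 FPKM in GFP- cells, and the thiamine carrier *Slc19a2* at 20.7 FPKM in GFP+ cells and 24.0 FPKM in GFP- cells. These carriers had similar levels in both libraries. The second thiamine carrier, *Slc19a3*, was at 0.0986 FPKM in GFP+ cells and 0.0174 FPKM in GFP- cells. For riboflavin, *Slc52a3* was at 29.2 FPKM in GFP+ cells and 25.5 FPKM in GFP- cells, and *Slc52a2* at 15.8 FPKM in GFP+ cells and 32.1 FPKM in GFP- cells. For ascorbate, *Slc23a1* was at 1.18 FPKM in GFP+ cells and 0.441 FPKM in GFP- cells, and *Slc23a2* at 6.56 FPKM in GFP+ cells and 7.96 FPKM in GFP- cells. *Slc23a3* was at 1.28 FPKM in GFP+ cells and 3.89 FPKM in GFP- cells. Apart from *Slc46a3*, the vitamin carriers of at least 1 FPKM lay between -1.10 and 0.60.

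Other vitamin genes stayed within the rule as deposited. Of 19 enzymes, binding proteins, receptors and carriers such as *Slc5a6* measured, 15 reached 1 FPKM. None of these passed the rule in either direction as deposited, with a median of -0.64. *Rbp2*, the retinol-binding protein of enterocytes, was at 105 FPKM in GFP+ cells and 231 FPKM in GFP- cells. *Scarb1*, a receptor for lipoproteins that also takes up carotenoids, was at 95.02 FPKM in GFP+ cells and 33.5 FPKM in GFP- cells, a difference of 1.48 that passed the rule with both libraries rescaled to one total. With a pseudocount of 0.1 FPKM, *Folr1* passed as higher. *Amn*, a subunit of the intestinal cobalamin receptor, was at 29.4 FPKM in GFP+ cells and 87.3 FPKM in GFP- cells, while *Cubn*, the gene of its partner subunit, was at 0.503 FPKM in GFP+ cells and 0.00284 FPKM in GFP- cells.

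Nucleoside carriers either equilibrate nucleosides across the membrane (Slc29) or concentrate them with sodium (Slc28). The equilibrative carrier *Slc29a1* was the transporter gene with the highest level in both libraries, at 192 FPKM in GFP+ cells and 217 FPKM in GFP- cells, a difference of -0.17. *Slc29a2* was at 2.31 FPKM in GFP+ cells and 5.20 FPKM in GFP- cells, and the lysosomal *Slc29a3* at 5.90 FPKM in GFP+ cells and 3.36 FPKM in GFP- cells. The concentrative carriers *Slc28a1* and *Slc28a2* were at 1.35 FPKM each in GFP+ cells, and at 0.872 and 1.89 FPKM in GFP- cells, and *Slc28a3* was at 0.274 FPKM in GFP+ cells and 0.772 FPKM in GFP- cells. None of the 7 genes passed the rule. Of 12 nucleoside salvage enzymes, 5 were at least 4-fold lower and none higher, with a median of -1.31. They were *Tk1*, a thymidine kinase of dividing cells (13.5 FPKM in GFP+, 110 FPKM in GFP- cells), *Adk* (39.0 FPKM in GFP+, 213 FPKM in GFP- cells), *Uck2*, *Aprt* and *Ada*. Under either other scaling *Tk1* alone stayed past the rule. The summed level of the stem and cycling markers given above was lower in GFP+ too, with *Olfm4* and *Smoc2* as its largest parts. Of the cycling markers, *Ccnb1* had a difference of -2.31, *Top2a* of -0.94 and *Mki67* of 0.12. The part of stem or cycling cells in the salvage values was not tested.

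The Slc17 family holds phosphate and urate carriers and the vesicular carriers of glutamate, ATP and sialic acid. None of its 9 genes passed the rule. *Slc17a5*, which exports sialic acid from lysosomes, was at 38.3 FPKM in GFP+ cells and 12.9 FPKM in GFP- cells, a ratio of 2.97 that fell short of the rule. *Slc17a4* was at 36.0 FPKM in GFP+ cells and 22.6 FPKM in GFP- cells. *Slc17a9*, the vesicular ATP carrier, was at 0.497 FPKM in GFP+ cells and 0.521 FPKM in GFP- cells. The vesicular glutamate carriers were all under 0.1 FPKM, with *Slc17a6* at 0.0698 FPKM in GFP+ and listed at 0 in GFP-, *Slc17a7* at 0.0999 FPKM in GFP+ cells and 0.0176 FPKM in GFP- cells, and *Slc17a8* listed at 0 in GFP+ and at 0.0263 FPKM in GFP- cells.

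Of the 50 ABC genes, 29 reached 1 FPKM and 6 passed the rule as higher, the median difference being 0.41. Subfamily A moves lipids. *Abca7* was at 18.03 FPKM in GFP+ cells and 3.03 FPKM in GFP- cells, a difference of 2.24, but its listed locus is a merged region shared by 50 rows and its upper bounds, 212 FPKM in GFP+ cells and 111 FPKM in GFP- cells, are wide for that level. *Abca3*, which loads phospholipid into lamellar bodies of the lung (chromosome 17, 24352023 to 24414513), was at 30.8 FPKM in GFP+ cells and 6.62 FPKM in GFP- cells, a difference of 2.06. Its listed locus is shared by 2 rows, so reads of an overlap may not be separated. *Abca5* was at 2.46 FPKM in GFP+ cells and 0.0609 FPKM in GFP- cells, a difference of 1.71, and *Abca2* at 6.88 FPKM in GFP+ cells and 3.28 FPKM in GFP- cells. *Abca1*, which lipidates apolipoprotein A-I, was at 0.764 FPKM in GFP+ cells and 0.115 FPKM in GFP- cells. All 4 subfamily A genes of at least 1 FPKM were above 0, against 46.2% of all symbols tested. *Abca5* reached 1 FPKM in GFP+ only, so it had to lie above 0.

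Subfamily B spans the drug pump of the apical membrane and pumps of mitochondria and lysosomes. *Abcb9*, a lysosomal peptide transporter related to the antigen peptide transporter (chromosome 5, 124061857 to 124095798, minus strand), was at 59.3 FPKM in GFP+ cells and 6.91 FPKM in GFP- cells, a ratio of 8.59 and a difference of 2.93. *Abcb10*, a mitochondrial inner membrane protein linked to haem synthesis (chromosome 8, 123952459 to 123983122), was at 60.6 FPKM in GFP+ cells and 13.9 FPKM in GFP- cells, a difference of 2.04. Another mitochondrial member, *Abcb8*, had a value below 0, at 38.2 FPKM in GFP+ cells and 84.1 FPKM in GFP- cells, a difference of -1.12. *Abcb6* was at 15.4 FPKM in GFP+ cells and 20.3 FPKM in GFP- cells. The differences of these 3 members therefore ranged from -1.12 to 2.04. The drug pump *Abcb1a* was at 30.2 FPKM in GFP+ cells and 15.4 FPKM in GFP- cells, and its close copy *Abcb1b* at 0.0116 FPKM in GFP+ cells and 0.0231 FPKM in GFP- cells. Near-identical stretches of this pair could have shared reads. The antigen peptide transporters are ABC proteins named outside the rule. *Tap1* was at 6.52 FPKM in GFP+ cells and 8.91 FPKM in GFP- cells, and *Tap2* at 18.6 FPKM in GFP+ cells and 9.82 FPKM in GFP- cells. Their loading partner *Tapbp* was at 146 FPKM in GFP+ cells and 55.9 FPKM in GFP- cells, a difference of 1.37.

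Subfamily C exports conjugates, drugs and cyclic nucleotides. *Abcc5*, an exporter of cyclic nucleotides (chromosome 16, 20331304 to 20426394), was at 19.7 FPKM in GFP+ cells and 4.00 FPKM in GFP- cells, a difference of 2.05. *Abcc1* was at 21.2 FPKM in GFP+ cells and 5.60 FPKM in GFP- cells, and *Abcc4*, which exports cyclic nucleotides and prostaglandins, at 10.6 FPKM in GFP+ cells and 2.62 FPKM in GFP- cells. Their differences of 1.75 and 1.68 stopped short of the rule. The conjugate exporters of the enterocyte had nearly equal levels, with *Abcc2* of the apical side at 12.0 FPKM in GFP+ cells and 10.0 FPKM in GFP- cells and *Abcc3* of the basolateral side at 43.3 FPKM in GFP+ cells and 45.0 FPKM in GFP- cells. Of the 8 genes of at least 1 FPKM, 7 were above 0, against 46.2% of all symbols tested. *Abcc12*, which reached 1 FPKM in GFP+ only, had to lie above 0. The exception was *Abcc3*, at -0.06 as deposited and above 0 under both other scalings. The potassium channel subunit *Abcc8*, the sulfonylurea receptor of pancreatic beta cells, was at 0.382 FPKM in GFP+ cells and 0.654 FPKM in GFP- cells, and its channel partner *Kcnj11* was listed at 0 in GFP+ and at 0.118 FPKM in GFP- cells. *Abcc9* was at 0.00449 FPKM in GFP+ and listed at 0 in GFP-. The chloride channel *Cftr*, a subfamily C protein named outside the rule, was at 14.7 FPKM in GFP+ cells and 20.2 FPKM in GFP- cells.

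Subfamily G holds the sterol and drug exporters. *Abcg1*, which passes cholesterol to lipoproteins (chromosome 17, 31057694 to 31117981), was at 6.44 FPKM in GFP+ cells and 0.102 FPKM in GFP- cells, a ratio of 63.2 and a difference of 2.76. The apical drug and urate pump *Abcg2* was at 37.6 FPKM in GFP+ cells and 62.2 FPKM in GFP- cells. *Abcg5* and *Abcg8*, which form a single pump that returns plant sterols to the lumen, were at 61.7 and 16.2 FPKM in GFP+ cells and at 46.1 and 37.5 FPKM in GFP- cells. Their differences were 0.41 and -1.16. The pair is listed with a common merged locus on chromosome 17, so that reads of the overlap may have been divided between them. Of 7 genes of sterol uptake and esterification, 6 reached 1 FPKM and *Npc1l1* alone passed the rule, with 149 FPKM in GFP+ cells and 35.5 FPKM in GFP- cells, a difference of 2.04 that fell short of the rule with a pseudocount of 5 FPKM. Its protein takes up cholesterol and plant sterols from the lumen, the direction opposite to that of *Abcg5* and *Abcg8*.

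The peroxisomal subfamily D and the soluble subfamilies E and F had no gene past the rule. *Abcd3* was at 96.0 FPKM in GFP+ cells and 77.5 FPKM in GFP- cells, and *Abcd4*, which exports cobalamin from lysosomes, at 4.02 FPKM in GFP+ cells and 10.4 FPKM in GFP- cells. Of 15 genes of peroxisome assembly, all of at least 1 FPKM, none passed the rule, with a median of -0.62. *Abce1*, *Abcf1*, *Abcf2* and *Abcf3*, which act in translation and carry no membrane part, were at 48.3, 70.1, 37.0 and 38.2 FPKM in GFP+ cells and at 60.5, 60.2, 79.1 and 32.6 FPKM in GFP- cells. The difference of *Abcf2*, -1.08, was the widest of these 4.

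Position in the genome was a further property that the choice by name did not use. Of the transporter genes found in RefSeq by symbol, 34 pairs are neighbours among the set and lie within 100 kb. In 5 of these pairs both genes reached 1 FPKM. These 5 were *Slc23a3* and *Abcb6*, *Slc22a5* and *Slc22a21*, *Slc22a21* and *Slc22a4*, *Slc13a2* and *Slc46a1*, and *Abcg5* and *Abcg8*. None of these genes passed the rule. *Slc22a13b-ps*, which RefSeq lists as *Slc22a13b*, was not found by symbol. By the listed loci it lies within 100 kb of *Slc22a13* and both reached 1 FPKM, so the counts leave out this pair. The 3 genes past the rule with a neighbour in the set, *Slc22a3*, *Slc47a1* and *Abca3*, lay beside genes near 0 FPKM. *Slc47a2*, 540 bases from *Slc47a1*, was at 0.0149 FPKM in GFP+ and listed at 0 in GFP-. *Abca17*, which overlaps *Abca3* in RefSeq but not by the listed loci, was listed at 0 in GFP+ and at 0.0255 FPKM in GFP- cells.

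The genes nearest the upper limit of the size rule were *Abcb10*, *Abcc5*, *Abca3*, *Slc46a3* and *Abca7* just inside it, from 2.04 to 2.24. Just outside it were *Abcc1*, *Abca5* and *Abcc4*, from 1.68 to 1.75. On the lower side *Slco2b1* came closest without passing, at -1.83 as deposited and -1.94 with a pseudocount of 0.1 FPKM. With the median ratio of well-expressed symbols set to 0, 16 transporter genes (22.5%) were higher and 0 lower, against 10.8% of all symbols higher. With each library rescaled to the same total 18 (24.3%) were higher and 0 lower, against 13.4% of all symbols higher. The totals leave out the 5 rows without an estimate in GFP+, *Chga* and *Chgb* among them. How far their RNA would change this scaling is not known. These scalings moved all symbols as well: 87.7% and 91.8% of the symbols past the rule were then higher, against 60.7% as deposited. The median difference over all tested symbols was 0.35 and 0.50 under these scalings, and that of the transporter genes 0.82 and 0.90. Of the transporter genes 76.1% and 74.3% then lay above 0, against 61.0% and 64.7% of all symbols. With a pseudocount of 5 FPKM in place of 1, the count fell to 4 genes, *Slco2a1*, *Slc13a1*, *Slc22a17* and *Abcb9* (5.88%), against 2.97% of all symbols.

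**Figure D4:**
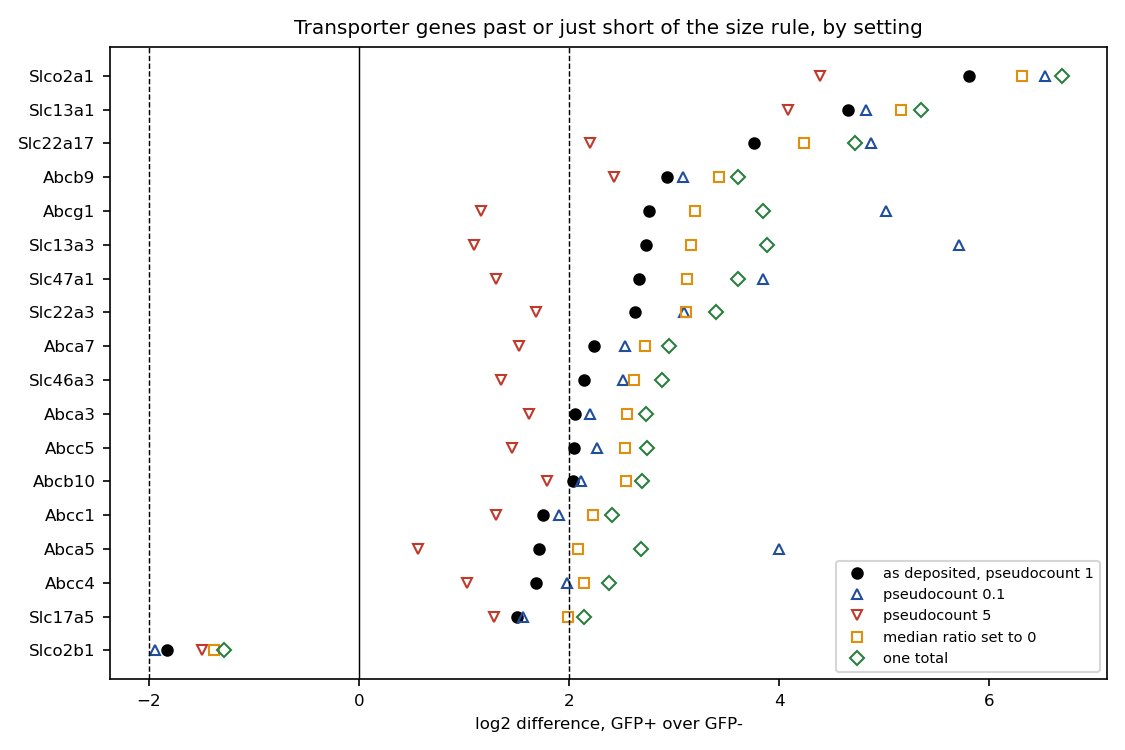
Log2 difference of GFP+ over GFP- for the 13 transporter genes past the size rule and 5 of those nearest to it, under 5 settings (filled black for the values as deposited, open symbols for other pseudocounts and scalings, dashed lines at the size rule). *Slco2a1*, *Slc13a1*, *Slc22a17* and *Abcb9* stayed above the upper line under all 5, and *Slco2b1* lay between 0 and the lower line under all 5.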

How the data were processed

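Polyadenylated RNA of 1 GFP+ and 1 GFP- library was compared. The authors deposited FPKM values with lower and upper confidence bounds and a status per gene, per the file headers. FastQC, TopHat2 0.7, Cufflinks, Cuffdiff and mm10 are named in the submitters' processing notes, and the annotation, library scaling, strand setting and treatment of multiply mapped reads were not stated in the sources used. The status of all 134 transporter rows was OK in both libraries. The lower bound was 0 for every one of the 23793 rows in GFP+ and for all but 1 row in GFP-, and the upper bound was a median of 2.35 times the FPKM among rows of at least 1 FPKM.

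FPKM was summed per symbol, leaving out 5 rows that Cuffdiff could not estimate in GFP+, which gave 23532 symbols. Differences used log2(FPKM + 1), which compresses changes at low levels. No test was possible with 1 library per group, so a size rule of 2 was used. The transporter genes, gene lists, families and rule for named genes were chosen with earlier results of these data known. The rule names each gene past the size rule, the highest and most different gene of each of 15 families and 47 further genes of known intestinal or vesicular function; the remaining genes of at least 1 FPKM named here were added after their values were seen. The values of a few genes that these rules or lists hold are not reported here, though counts, medians and sums include them. Python 3.11.15, pandas 2.3.3 and numpy 2.4.6 were used. Locus starts were shifted to count from 1.

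The files hold no depth, but low FPKM values come in steps. Over single-transcript genes longer than 3000 bases (GENCODE M21), the most populated step, taken as 1 fragment, gave 59.8 fragments per FPKM and kilobase in GFP+ and 59.0 in GFP-. Of values below 4.5 fragments, 59.0% of 83 genes in GFP+ and 75.2% of 109 in GFP- lay within 0.1 of a whole number. On this scale 3 fragments, the limit that a count of 0 allows, correspond for a 2 kb transcript to 0.0251 FPKM in the GFP+ library and 0.0254 FPKM in the GFP- library. Fragment numbers in the text use the longest GENCODE transcript. They cover counting error only: the cDNA was amplified without molecular identifiers, so fragments are not separate molecules.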

Additional observations from a re-analysis of the deposited data

How the results depend on the processing

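No pseudocount or filter can turn the sign of a difference, and both other scalings raised GFP+ against GFP-. The direction of the 13 genes past the rule was therefore fixed under these settings, and only the size of their differences could change. With a pseudocount of 5 FPKM 4 transporter genes were higher and 0 lower (353 and 315 of all symbols), with a median of 0.20. The 9 genes lost, *Abca3*, *Abca7*, *Abcb10*, *Abcc5*, *Abcg1*, *Slc13a3*, *Slc22a3*, *Slc46a3* and *Slc47a1*, then lay between 1.09 and 1.79, since a larger pseudocount shrinks low levels by construction. With 0.1 FPKM 16 were higher (1524 of all symbols, 809 lower), *Abca5*, *Abcc12* and *Slc22a13* being added, with a median of 0.36. With the median ratio set to 0 *Abca5*, *Abcc1* and *Abcc4* were added (1317 symbols higher, 184 lower), with a median of 0.82. With both libraries rescaled to a total of 1000000 FPKM, *Slc17a5* and *Slc22a13b-ps* were added to these 3 (1717 higher, 153 lower), with a median of 0.90. Under each of these scalings the same 10 of the 27 transporter genes of at least 1 FPKM that lay below 0 turned above 0, *Slc29a1*, *Slc19a1*, *Slc19a2* and *Abcc3* among them. A minimum of 5 FPKM gave a median of 0.29, no filter 0.01, and leaving out joined or repeated rows 0.33, each with 13 higher. A size rule of 1 gave 20 higher and 10 lower transporter genes (2380 and 2743 of all symbols). No paired analysis was possible because each fraction is a single library, and no replicate could be left out for the same reason. Genes at 0 or a few fragments, *Slc13a3* and *Slc22a13* in GFP- among them, are limited by depth.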

Other observations

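The RefSeq table gives 3 further genes whose current symbol falls under the naming rule while the deposited tables list them under an older symbol. They were not counted among the 134. *Slc23a4*, listed as 2010107G12Rik, was at 3.66 FPKM in GFP+ cells and 11.5 FPKM in GFP- cells, a difference of -1.43, which was lower than that of each of the 3 ascorbate family genes counted. *Slc10a4l* (Gm5868) and *Slc28a2b* (Gm14085) were below 0.2 FPKM in both libraries.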
